A study of Caenorhabditis elegans with 2 samples.

Results

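The 9 genes described here belong to the DNA damage checkpoint of C. elegans and to telomere upkeep: mrt-2, hus-1, hpr-9, hpr-17, atl-1, atm-1, clk-2, chk-1 and trt-1. They were chosen by name, in part because mrt-2 was known to carry one of the strongest CEH-90 peaks in these data, and they are 9 of the 19973 protein-coding genes of the nuclear chromosomes. For each gene every peak summit was collected from 1000 bp upstream of an annotated start to the gene end. CEH-90 is the product of a homeobox gene, and its binding was profiled by ChIP-seq with a GFP antibody in 2 biological replicates of whole hermaphrodite worms. The worms were of strain OP210, genotype unc-119(ed3) III with the integrated transgene wgIs210, which encodes CEH-90 with GFP and FLAG at its C-terminal end. They were L1 larvae taken 6 hours after synchronization by bleaching and starvation. There was 1 group and no second condition, and a possible control that the labels point to was not analysed here. In whole worms, binding in few cells and weak binding in many cannot be told apart.

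In animals the checkpoint senses broken or stalled DNA. A ring of 3 proteins, the 9-1-1 clamp, is loaded onto damaged DNA and helps to activate large protein kinases, which in turn act on effector kinases that halt the cell cycle. In C. elegans the clamp is made of MRT-2, HUS-1 and HPR-9 and its loader contains HPR-17. ATL-1 and ATM-1 are the sensor kinases ATR and ATM, CHK-1 is an effector kinase, and CLK-2 is the worm form of TEL2, a protein that other species need to keep such kinases stable. TRT-1 is the catalytic subunit of telomerase, and worms that lack mrt-2 also lose telomere repeats over generations.

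The lists were those the authors deposited in build ce11. Replicate 1 held 23796 peaks with background, replicate 2 held 30000, and a list from both replicates pooled held 30000. A shorter list was thresholded by IDR, the irreproducible discovery rate, which measures how alike replicates rank their peaks. It is called the IDR list here, and its 765 peaks were the strongest of the pooled list. The authors' signal per peak has no stated scale, so it was used to rank and describe peaks within a list. Ratios of signal between lists are given as a description only and do not measure equal or unequal binding. The lists give no read counts, so depth was unknown and no interval could be put on a single signal. At ceh-90 itself the pooled list had 2 summits, ranked 2486 and 4844, and the IDR list none. Replicate 2 had summits near them, ranked 3273 and 7210, and replicate 1 had none there.

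Of the 9 genes, 4 had a summit in the IDR list, and they were genes of the clamp, its loader and one sensor kinase: mrt-2, hpr-9, hpr-17 and atm-1. The background was 4.86% of all protein-coding genes, or 970 of 19973. The genes were picked with such peaks in view, so the count has no test. All 4 summits also lay in a promoter window, which runs from 1000 bp before a start to 200 bp past it and held an IDR summit at 4.46% of protein-coding genes. The same 4 genes were called with 500 bp upstream (background 4.09%), with 2000 bp upstream (5.78%) and where any overlap with the peak counted (5.37%). Each summit given to the nearest start alone left mrt-2 and hpr-17 (background 3.22%). The 382 strongest IDR peaks left mrt-2, hpr-9 and hpr-17 (2.63%), as did the 765 strongest peaks of replicate 1 alone (4.8%) or of replicate 2 alone (4.75%). Their ranks spread over the IDR list, at 12 for mrt-2, 44 for hpr-9, 366 for hpr-17 and 619 for atm-1. The remaining 5 genes, hus-1, atl-1, clk-2, chk-1 and trt-1, had none.

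**Figure D1:**
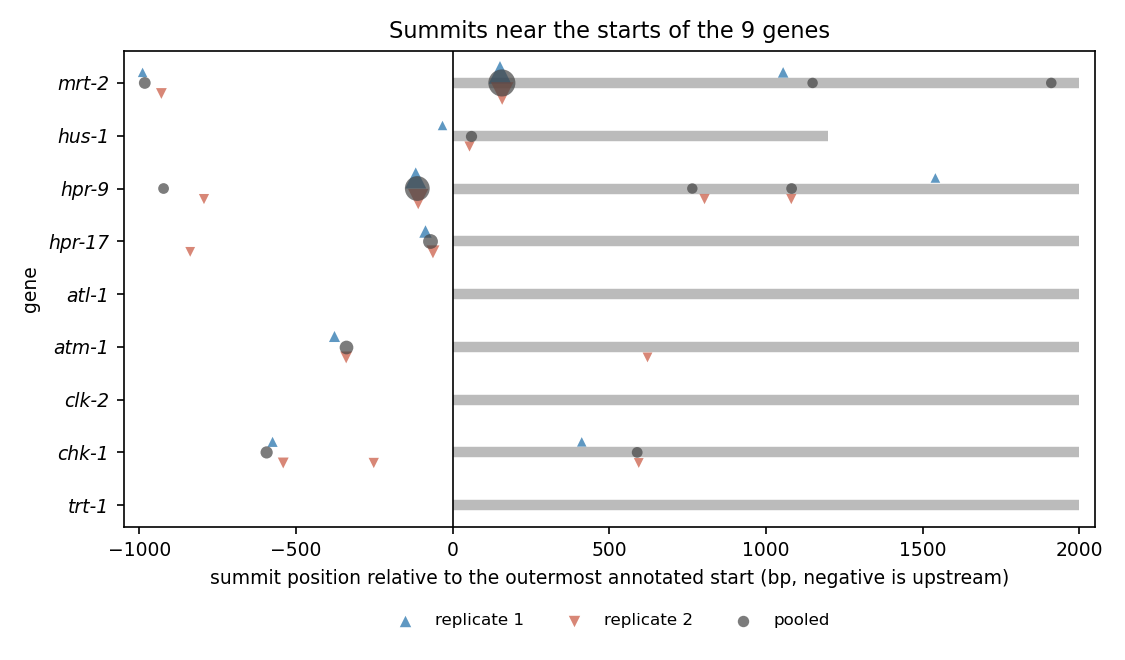
Summit positions in bp (x axis, from the outermost annotated start) at each of the 9 genes (y axis) in the lists of replicate 1, replicate 2 and both pooled; marker area grows with signal, grey bars are gene bodies, and positions beyond 2000 bp are not drawn. The large symbols at mrt-2 and hpr-9 lie within 158 bp of that start in all 3 lists, and atl-1, clk-2 and trt-1 have none in the range drawn.

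The strongest peak was that of mrt-2, which encodes the RAD1-like subunit of the clamp. The gene (WBGene00003417) lies on the plus strand at chrIII:11746766-11750175 and has 2 annotated starts, at 11746766 and 11747038. The IDR peak covered chrIII:11746739-11747087 and thus both starts. Its summit, at 11746923, was 157 bp downstream of the outer start, in the 5' UTR that begins there, and 115 bp upstream of the inner one. Trans-splicing removes the first bases of many worm transcripts, so where transcription begins may differ from the annotation.

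The signal of this peak was 620.5 in replicate 1, 620.5 in replicate 2 and 1239 in the pooled and IDR lists. It ranked 16 of 23796 in replicate 1, 12 of 30000 in replicate 2 and 12 in the pooled list. Both replicates thus placed it near the top, with summits 6 and 1 bp from the IDR summit. Its -log10 q was 2.98, the highest in the IDR list, a value that 475 of the 765 peaks shared, so q did not order it among them. It was 349 bp wide, and the peaks ranked 10, 11, 13 and 14 were 326 to 366 bp wide.

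No other protein-coding gene had a start whose promoter window held the mrt-2 summit. The nearest coding gene upstream, sup-1, began 9138 bp away on the other strand. Elsewhere across mrt-2 the pooled list had 4 weaker summits, ranked 3022 to 27779, at 983 bp upstream of the outer start and inside the gene. The best of them, at 11749853 near the gene end, had a signal of 44.4, and the replicates had summits near it at ranks 10883 and 1033. Within the gene and its upstream kilobase, the strong site was therefore the one at the start.

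The neighbours of the mrt-2 peak in pooled rank were the IDR peaks ranked 10, 11, 13 and 14. Their nearest protein-coding starts were those of ced-5, needed for engulfment of cell corpses, F58D12.3, C49A9.10 and sws-1. Their pooled signals ran from 1218 to 1373 and their replicate ranks from 9 to 15. The start of F58D12.3 was 2608 bp from its peak, and the other 3 starts lay 42 to 237 bp away. They are neighbours in rank and not the peaks closest in signal, since the peak ranked 15, at 1173, was nearer to mrt-2 than those ranked 10 and 11.

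**Figure D2:**
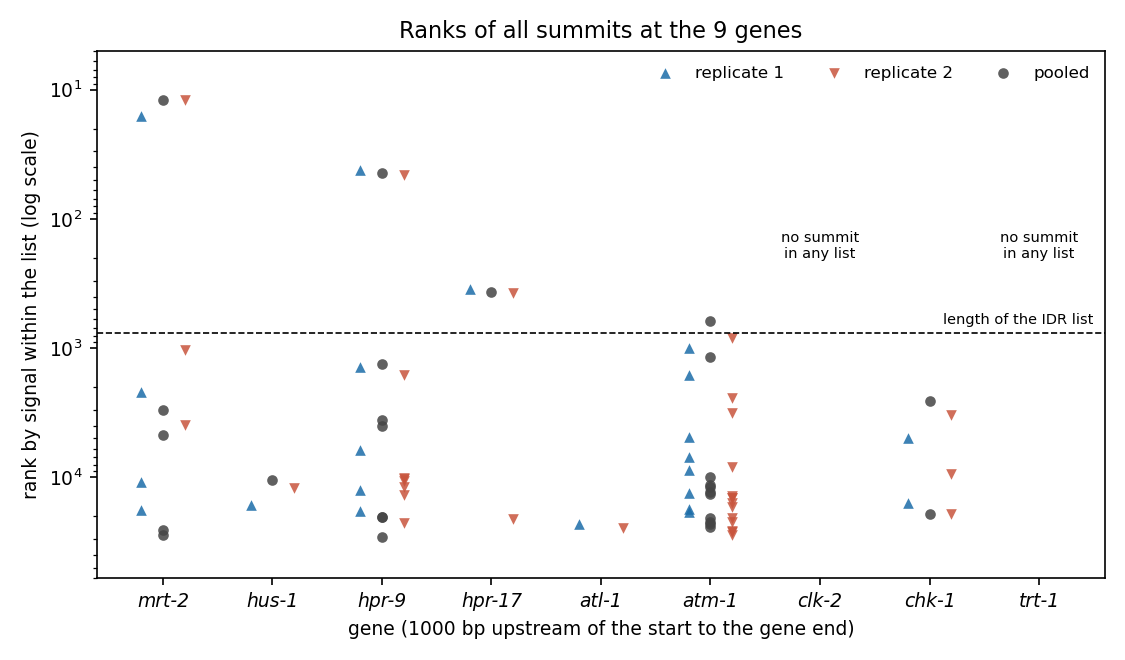
Rank by signal (y axis, log scale, 1 is the strongest) of every summit from 1000 bp upstream to the gene end of the 9 genes, for replicate 1, replicate 2 and the pooled list; the dashed line is the length of the IDR list, 765. The mrt-2 and hpr-9 peaks stand above rank 50 in all 3 lists, while the atm-1 peak is above the line in the pooled list and below it in each replicate.

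The second clamp gene with a strong peak was hpr-9 (WBGene00001997), which encodes the RAD9-like subunit and lies on the plus strand at chrIII:10621551-10626398. Signal was 469 in replicate 1, 407 in replicate 2 and 886 in the pooled list, at ranks 42, 46 and 44. Both replicates thus held it near the same rank, with summits 5 and 3 bp from the pooled one. The peak, chrIII:10621281-10621589, had its summit at 10621438, in the gap of 181 bp between hpr-9 and the divergent gene lron-10. The summit was 69 bp from the start of lron-10 and 113 bp from that of hpr-9, and the lists do not say which of the 2 genes it serves. When each summit was given to the nearest start alone, hpr-9 lost its peak.

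Further into hpr-9 the pooled list held 2 overlapping peaks, with summits on either side of a tRNA gene, at 10624639 and 10624841. They ranked 1317 and 3584, outside the IDR list, with signals of 57.4 and 42.2. In replicate 1 the summit there, at 10624745, ranked 1398, and in replicate 2 the better one, at 10624636, ranked 1605. Over its whole span hpr-9 had 7 pooled summits, or 1.20 per kb, and mrt-2 had 5, or 1.13 per kb. Per kb the other members had fewer, at 0.603 for chk-1, 0.455 for hus-1, 0.423 for atm-1, 0.218 for hpr-17 and 0 for atl-1, clk-2 and trt-1. In number atm-1 had the most, with 11 pooled summits, but the gene is 25021 bp long. Over all protein-coding genes the median was 0.216 per kb, with an upper quartile of 0.482, and lron-10 had 1.33.

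For hpr-17 (WBGene00001998), the gene of the RAD17-like clamp loader subunit, the peak was of middle rank. The gene is on the minus strand at chrII:13153464-13157047. Signal was 51.2 in replicate 1, 60.8 in replicate 2 and 110.5 in the pooled list, at ranks 350, 378 and 366. Both replicates thus held it within their strongest 765 peaks. The summit at 13157121, in a peak at chrII:13156906-13157335, was 74 bp upstream of hpr-17 and 208 bp upstream of F32A11.1, which is divergent from it across a gap of 281 bp. The start of hpr-17 was the nearer one.

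The sequences below carry the sites of mrt-2, hpr-9 and hpr-17, read on the plus strand of WBcel235, the assembly behind ce11. For mrt-2, whose summit is in a 5' UTR, only 30 bases around the summit are given, and for the other genes the whole gap to the divergent neighbour. Capitals mark matches, on either strand, to GGCCTA, to GGCCAC, to CGGCCA, to CTAGGC or to ACGCGC, which are 5 6-mers that led at IDR summits in an earlier analysis of these lists.
mrt-2, chrIII:11746911-11746940: acgaggtgcgatGGCCTAcaaaactccgca
hpr-9, chrIII:10621370-10621550: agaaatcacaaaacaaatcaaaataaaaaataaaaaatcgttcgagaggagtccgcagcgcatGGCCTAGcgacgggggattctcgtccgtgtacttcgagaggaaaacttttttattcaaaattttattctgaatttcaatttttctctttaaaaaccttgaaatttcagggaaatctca
hpr-17, chrII:13157048-13157328: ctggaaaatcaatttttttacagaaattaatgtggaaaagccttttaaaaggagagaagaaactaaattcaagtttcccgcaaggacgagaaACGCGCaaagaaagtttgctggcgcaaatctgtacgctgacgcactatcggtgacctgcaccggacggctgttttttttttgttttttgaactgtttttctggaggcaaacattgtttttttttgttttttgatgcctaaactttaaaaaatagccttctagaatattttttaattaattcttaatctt

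At mrt-2 and hpr-9, the 2 strongest sites, GGCCTA lay at the summit itself. In mrt-2 its first base was the summit base, and in hpr-9 its last base was, so that its centre was 2.5 bp from the summit in each. In hpr-9 it overlaps a match to CTAGGC on the other strand. Within 50 bp of the summit GGCCTA was found, on either strand, at 144 of the 765 IDR summits (18.8%) and at 630 of the 29008 pooled-list summits whose peaks overlapped no IDR peak (2.17%). At the 144 IDR summits its centre was a median of 12.5 bp away. The site of hpr-17 held ACGCGC, starting 19 bp to the right of the summit, a 6-mer found at 14.0% of IDR summits and 1.82% of the others. Any of the 5 was within 50 bp of 40.1% of IDR summits and 7.27% of the others. TAAT, the core bound by many homeodomains, was within 50 bp of the IDR summit at hpr-17. At mrt-2 the nearest copy spanned 48 to 51 bp from it, across the edge of the window, and at hpr-9 there was none within 100 bp. With the replicate 2 summit TAAT was within 50 bp at mrt-2 as well, and with the replicate 1 summit it was within 50 bp at neither gene. At atm-1 TAAT was not within 50 bp of the IDR summit but was within 50 bp of the replicate 1 summit. Of IDR summits 50.5% had it, and of the others 67.6%. The 2 sets of summits also differed in base content, with a median GC of 44.6% and 32.7%. The part of base content in the shares of TAAT and the 6-mers was not tested. These 6-mers were picked on a list that includes the 4 peaks, so their matches are a description.

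The windows of 100 bp on each side of the mrt-2 and hpr-9 summits also shared a run of 10 bases, CGAGAGGAGT, the longest the 2 windows had in common on either strand. In hpr-9 it lay at 10621412 to 10621421 on the plus strand, 11 bases before GGCCTA. In mrt-2 it lay at 11746946 to 11746955 on the minus strand, with 17 bases between it and GGCCTA. The run was chosen after these 2 windows were compared, and its shares are a description. Among the other 763 IDR summits, 52 (6.82%) had it within 100 bp, against 32 of the 29008 other pooled-list summits (0.110%). With mrt-2 and hpr-9 left out throughout, 37 of the other 189 summits among the 191 strongest had it (19.6%) and 15 of the remaining 574 (2.61%). Of the 20 strongest summits, 10 of the 19 other than mrt-2 had it (52.6%), so it was common at peaks of that rank. Among the rank neighbours of mrt-2, ced-5 had the run, and ced-5, C49A9.10 and sws-1 had GGCCTA within 50 bp. The F58D12.3 peak had neither. Outside the mrt-2 and hpr-9 windows the nuclear genome held 330 copies of the run, of which 56 (17%) lay within 100 bp of an IDR summit. GGCCTA was within 100 bp of 21 of the other 52 IDR summits with the run (40.4%) and of 148 of the 711 without it (20.8%). At the summits of hpr-17 and atm-1 the run CGAGAGGAGT was not found within 100 bp. The hpr-17 window was also compared with the other 2, and shared runs of 9 bases with hpr-9 and of 8 bases with mrt-2. The runs of 9 bases were GAATTTCAA (2.61% of IDR summits, 1.76% of the others), TCAATTTTT (5.10% and 6.85%) and GGACGAGAA (1.31% and 0.179%). Runs nearly as long were thus shared by other windows, some without a higher share at IDR summits.

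**Figure D3:**
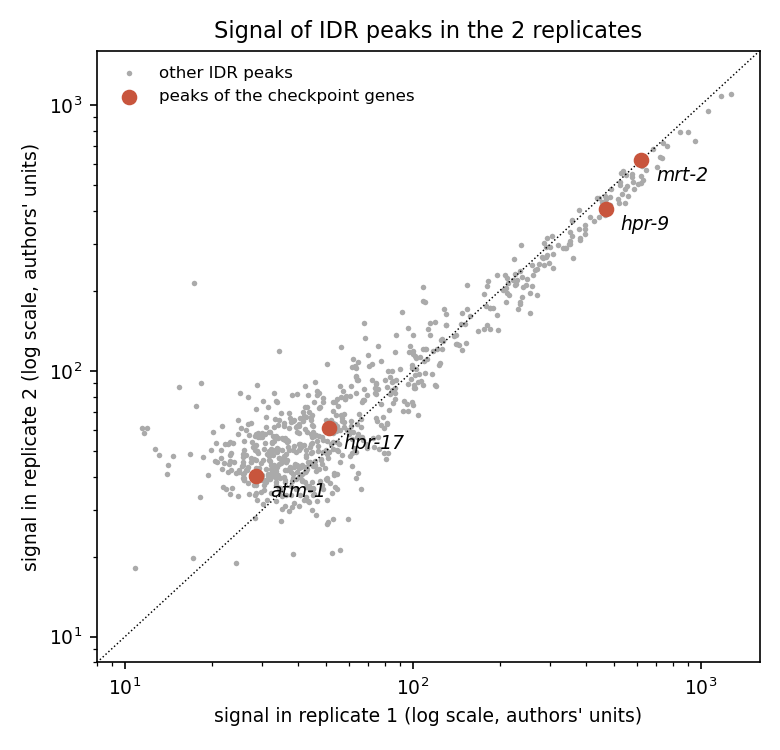
Signal in replicate 1 (x axis) against replicate 2 (y axis), both on log scales in the authors' units, for the 717 IDR peaks with a summit within 100 bp in both full lists; red points are the 4 checkpoint gene peaks and the dotted line marks equal signal. The mrt-2 and hpr-9 peaks, at 620.5 and 469 in replicate 1, lie among the strong peaks close to the line, and hpr-17 and atm-1 lie in the broad cloud of weaker ones.

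The weakest of the 4 IDR peaks was that of atm-1 (WBGene00000227), the gene of the ATM kinase, on the plus strand of chromosome I at 183364 to 208384. Signal was 28.4 in replicate 1, 40.0 in replicate 2 and 78.8 in the pooled list, at ranks 1000, 837 and 619. It was outside the strongest 765 of each replicate and inside those of the pooled list, so without either replicate 3 of the 9 genes had a peak, not 4. The IDR list ended at a signal of 71.4, at rank 765. The strongest summit of the 9 genes left outside the IDR list was also in atm-1, in an intron at 194919, with a pooled signal of 59.8 and rank 1179. The summit at the start, at 183023, was 341 bp upstream of atm-1 and 251 bp upstream of F56C11.3, which is divergent from it and nearer. None of the 5 6-mers was within 50 bp of it. GC content within 50 bp of the summit was 45.5% at atm-1, 50.5% at mrt-2, 44.6% at hpr-9 and 39.6% at hpr-17. The medians were 44.6% at IDR summits and 32.7% at the others.

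The ratio of replicate 2 to replicate 1 signal was 1.00 for mrt-2, 0.870 for hpr-9, 1.19 for hpr-17 and 1.41 for atm-1. Over the 717 IDR peaks with a partner in both lists it had a median of 1.13 and quartiles of 0.914 and 1.51. The ratio of hpr-9 was thus a little below the lower quartile, and the other 3 lay between the quartiles. The IDR summits of hpr-17 and atm-1 were 15 and 38 bp from their partners in replicate 1 and 11 and 1 bp in replicate 2, against a median of 9 bp in each over all 717.

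The third clamp gene, hus-1 (WBGene00002042), differed from mrt-2 and hpr-9, with a single weak summit per list. The gene is on chromosome I at 3698102 to 3699300, divergent from the mismatch repair gene msh-2 across a gap of 550 bp. Signal was 12.1 in replicate 1, 18.4 in replicate 2 and 31.2 in the pooled list, at ranks 16508, 12083 and 10551. The summits lay at 34 bp upstream, 52 bp downstream and 57 bp downstream of the start. All 3 ranks fall deep in lists that were made to include background, and the nearest IDR summit was 61423 bp from the start. The clamp genes therefore ranged from rank 12 of the IDR list to no IDR peak, an order that both replicates gave.

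The effector kinase gene chk-1 (WBGene00000498), on the minus strand at chrV:3757153-3759469, had a summit that ranked between those of atm-1 and hus-1. Upstream of its start the signal was 17.6 in replicate 1, 26.5 in replicate 2 and 46.6 in the pooled list, at ranks 4938, 3301 and 2548. These summits lay 575, 541 and 594 bp upstream of a start. A pooled summit of any rank was found at 6 of the 9 genes and at 56.1% of protein-coding genes. With a match distance of 100 bp, hus-1 and chk-1 joined the 4 IDR genes in having one matched in both replicates. The background for that call was 24.8% of protein-coding genes. At 50 bp only mrt-2, hpr-9, hpr-17 and atm-1 did so, and the background was 16.7%.

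The ATR gene atl-1 (WBGene00000226), on the minus strand at chrV:9634849-9645595, had no pooled summit and no summit at its start. Replicate 1 had a summit at 9641480 with a signal of 10.6, and replicate 2 one at 9637569 with a signal of 14.0, both in coding exons. They ranked 23148 of 23796 and 24595 of 30000, and lay at different places. Of the 2 sensor kinase genes, atm-1 thus had an IDR peak, and atl-1 had no summit that the replicates shared. Like atm-1, atl-1 has a divergent neighbour, hcp-2, 263 bp away.

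For clk-2 (WBGene00000537) and the telomerase gene trt-1 (WBGene00006618) no list held a summit. The gene clk-2 is on the minus strand at chrIII:7515222-7518524 and follows cux-7 on the same strand after a gap of 103 bp. The strongest peak of the IDR list, at the start of cux-7, had its summit at 7520851, which is 2327 bp upstream of clk-2 and outside its span even when 2000 bp upstream are allowed. The span therefore does not count a peak at the start of cux-7, and whether that peak also serves clk-2 was not tested. The gene trt-1, on the plus strand of chromosome I at 8765745 to 8771251, follows lmn-1, the lamin gene, on the same strand after 113 bp, and its nearest IDR summit, ranked 270, was 5815 bp from its start. These 2 genes had a tandem gene upstream, and the other 7 had a divergent one.

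In all, the 9 genes held 22 summits in replicate 1, 32 in replicate 2 and 27 in the pooled list, of which 4 were in the IDR list. Outside the 765 strongest of a replicate, 11 of 19 replicate 1 summits (57.9%) had a replicate 2 summit within 100 bp, and 11 of 29 (37.9%) the reverse. Each 11 includes the start peak of atm-1, at replicate ranks 1000 and 837, which is in the IDR list. Over all such weaker peaks the shares were 29.5% and 23.3%. Several of these summits share a gene, atm-1 alone having 8 in replicate 1 and 14 in replicate 2, so they are not independent.

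Beyond the 9 genes, 92 others of the damage response, repair and telomere upkeep were listed from general knowledge, and 14 (15.2%) had an IDR summit in the same span, against the background of 4.86%. Among 23 signalling and checkpoint partners there were 8. They include rfc-2 (rank 164) and rfc-4 (rank 300), genes of clamp loader subunits that work with the RAD17-like protein, pcn-1 (rank 184), the gene of the replication clamp PCNA, rpa-2 (rank 453), of the single-strand binding protein RPA, tim-1 (rank 279), related to timeless, and clsp-1 (rank 595), the claspin gene. The other members with a summit were ruvb-2 (rank 702) and let-363, the TOR kinase gene, where it lay in an intron 16128 bp from the nearest start. At ruvb-2 the replicate ranks were 4333 and 1376 and at let-363 they were 1932 and 464, so ruvb-2 was outside the strongest 765 of each replicate and let-363 outside those of replicate 1. The clsp-1 peak was outside those of replicate 1 too, at rank 893. Of all 14 genes, 10 were within the strongest 765 in both replicates. The same share over all IDR peaks was not taken, so this count does not set these genes apart from the list.

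**Figure D4:**
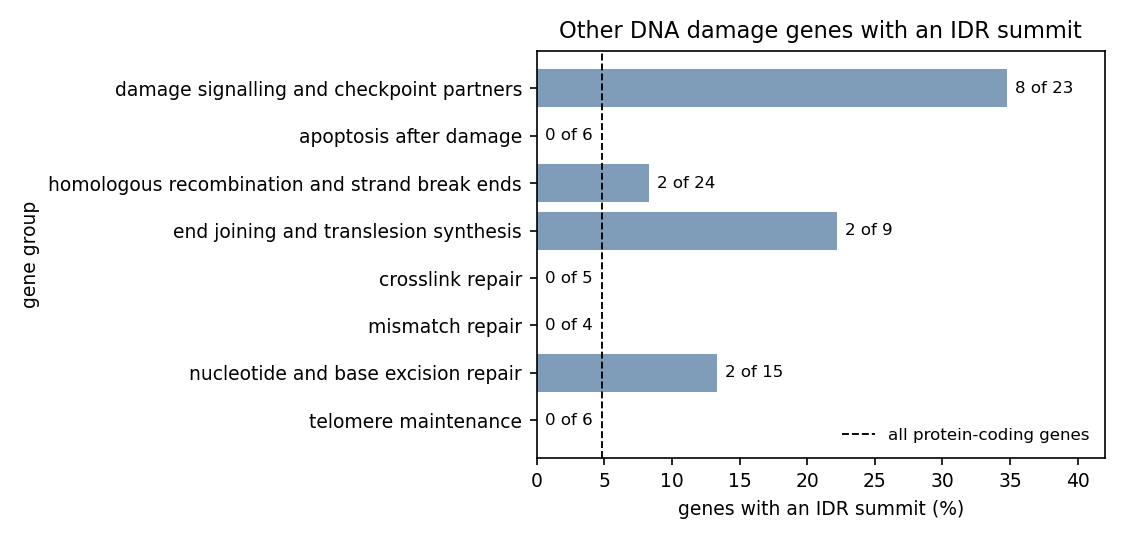
Share of genes with an IDR summit (x axis, %) in 8 groups of other DNA damage genes (y axis), with the count beside each bar; the dashed line is the share of all protein-coding genes, 4.86%. The bar of the signalling and checkpoint partners is the longest, at 34.8%, and 4 groups have none.

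Among repair genes, 2 of 24 for homologous recombination had a site (8.33%), against the background of 4.86%. They were mre-11 (rank 163), whose product processes broken ends, and smc-6 (rank 383), which ranked 780 in replicate 2. Of 9 genes for end joining and translesion synthesis there were 2 (22.2%), lig-4 and polq-1 (rank 304). The summit of lig-4, the DNA ligase IV gene, was the top peak of the list, 612 bp from its start, but it was 6 bp from that of cux-7 and 158 bp from that of C07H6.2. Excision repair had 2 of 15 (13.3%), xpa-1 (rank 370) and csb-1 (rank 401). The 6 genes of apoptosis after damage, 5 of crosslink repair, 4 of mismatch repair and 6 of telomere maintenance had none in this span. At a background of 4.86%, groups of this size may well hold none. The apoptosis gene ced-9 was called with 2000 bp upstream, by peak overlap and with the 765 strongest peaks of replicate 2. For 8 of the 14 genes another coding start shared the peak, such as eef-1A.1 beside rfc-4. Over all IDR peaks, 288 of the 610 in a coding promoter window were in windows of more than 1 coding gene. As with cux-7 at lig-4, the other start was nearer to the summit for eef-2 at clsp-1, F53H4.4 at csb-1 and Y75B8A.23 at tim-1. Of the 15 summits at these genes, 9 had one of the 5 6-mers within 50 bp, against 40.1% of all IDR summits. Those of lig-4, mre-11 and rfc-2 had the run CGAGAGGAGT within 100 bp, against 6.82% of IDR summits other than mrt-2 and hpr-9. They ranked 1, 163 and 164, and among the 191 strongest the share, without mrt-2 and hpr-9, was 19.6%. The list was drawn up with results for lig-4 known, and like the 9 genes it was given no test.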

How the data were processed

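The authors deposited narrowPeak lists for 2 replicates, both pooled, and an IDR-thresholded list, in ce10 and ce11. Notes deposited beside the lists derive each from the alignments of 1 or both replicates and 1 further common file. For aligner, peak caller and IDR threshold, names and versions were not given in the sources used here. Column 7, the authors' signal per peak, has no stated scaling and ranked peaks within a list. The deposited -log10 q-value (column 9) was used as an alternative ranking. The ce10 lists were not used here.

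Summits were placed on Ensembl 115 gene models of WBcel235 with Python 3.11.15 and pandas 2.3.3, in 1-based coordinates. The assignment was tested on simulated data. Summits of different lists matched within 100 bp. Named genes were the 9 members, genes whose promoter windows held a member's strongest summit, listed pathway genes with an IDR summit, the nearest starts at the IDR peaks ranked 2 above and 2 below mrt-2, ceh-90, and, added afterwards, upstream neighbours and genes sharing a pathway peak. The members, lists and 6-mers were chosen with earlier results of these data known, and the shared run was chosen during this work. With 1 group and chosen genes, values are descriptions without p-values. Alternatives changed the window, the assignment, the list, the replicate and the match distance.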

Additional observations from a re-analysis of the deposited data

How the results depend on the processing

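The count of 4 checkpoint genes with an IDR summit was also 4 with 500 or 2000 bp upstream, with promoter windows alone and with peak overlap, and 3 in the stronger 382 peaks. Without a replicate it was 3 to 3. With the nearest start alone it was 2, as hpr-9 and atm-1 lost their peaks to divergent neighbours, against a background of 3.22%. Of the 92 listed genes, 14 had a summit in the main setting (background 4.86%). The alternatives that used all IDR peaks or 1 replicate gave 10 to 16. The nearest start alone gave 10 (background 3.22%), and 2000 bp upstream gave 16 (5.78%). Without replicate 1 the count was 16 (4.75%), and without replicate 2 it was 12 (4.8%). The 382 strongest IDR peaks, which are fewer, gave 8 (2.63%). The rank of the mrt-2 peak, 12, was 1 by -log10 q, where 475 peaks tie, and 12 to 16 without a replicate. The number of genes with a pooled summit matched in both replicates was 6 in the main setting (background 24.8%) and 4 within 50 bp (16.7%). It was 6 within 200 bp (30.3%), by peak overlap (33.1%), without replicate 1 (44.1%) and without replicate 2 (35.8%), so the share over all genes rose where the count did not. Of the 6 short patterns, 1 lay within 50 bp of the mrt-2 summit, 3 within 100 bp, and 1 to 2 without a replicate, where TAAT was the one gained. Without replicate 2 TAAT was lost at hpr-17 and gained at atm-1. No paired analysis was possible because there was 1 group. The lists hold no read counts, so depth sets no limit that could be stated.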

Other observations

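The authors' signal of a pooled peak was close to the sum of the replicate signals. At mrt-2 the ratio of the pooled signal to that sum was 0.998, at hpr-9 1.01, at hpr-17 0.987 and at atm-1 1.15. Over the 717 IDR peaks matched in both replicates its median was 1.02, with quartiles of 1.00 and 1.07. A pooled level is therefore not on the same footing as a replicate level.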
